A study of Homo sapiens with 22 samples.

Results

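In K562 cells with a biotin-tagged WT1 +KTS protein, 20996 regions were called in all 3 capture libraries, in no library of untagged cells and not in both WT1 −KTS libraries. Of these, 8064 (38.4%) lay more than 50 kb from each of the 21612 H3K4me3 regions called in both H3K4me3 lists of +KTS cells, and they are described here as the distal +KTS regions. They covered 4.43 Mb in all. Another 12155 regions lay within 50 kb of the mark without touching it, and 777 overlapped it. These 2 sets serve as the comparison. The members were chosen by peak calls of the +KTS, −KTS and untagged captures and by H3K4me3 calls of +KTS cells, so their recurrence in +KTS libraries and their distance to the mark are descriptions.

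WT1 is a zinc-finger transcription factor of the developing kidney and gonads that is also expressed in leukaemia cells. Alternative splicing adds or omits a KTS stretch (lysine, threonine, serine) between its last zinc fingers. The −KTS form is known to bind GC-rich DNA sites, and the +KTS form binds such sites less strongly and also associates with RNA and splicing proteins. H3K4me3, trimethylation of histone H3 at lysine 4, marks the promoters of active and poised genes. A region far from all of this mark would be distant from most promoters in use, but promoters were not located here.

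All cells were K562, a human chronic myeloid leukaemia line with erythroid features, stably transfected with pEF1aBirAv5-neo, which carries the bacterial biotin ligase BirA, and grown with G418. The +KTS cells also carried pEF1a-Flagbiotin-(WT1+17AA/+KTS)-puro, the −KTS cells pEF1a-Flagbiotin-(WT1+17AA/-KTS)-puro, and the untagged cells no further plasmid. Both WT1 forms thus held the insert of 17 amino acids and a FLAG and biotin tag, and both were introduced rather than native. Whether the lines were clones or pools is not given in the sources used here. Streptavidin capture gave 3 +KTS, 2 −KTS and 3 untagged lists, and H3K4me3 immunoprecipitation gave 2 lists from +KTS and 3 from −KTS cells. The labels do not say whether replicates are separate cultures. The p-values therefore measure only the spread between these libraries, which may be technical.

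The lists differed widely in length, and the shortest +KTS list bounds the distal regions. The +KTS lists of replicates 1, 2 and 3 held 543203, 373510 and 35455 peaks, the −KTS capture lists 154732 and 3245, the untagged lists 101 to 743 and the H3K4me3 lists 27341 to 53149. The lowest score was 50 in every list of −KTS cells and 13 in all others, so peaks with scores under 50 are not in the −KTS lists. Read depth is unknown from peak lists. Genes, promoters, repeats and base composition at the regions, and K562 marker genes, were not analysed here, because no hg19 genome or annotation was used. Regions are given by 1-based hg19 coordinates.

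Distance from H3K4me3 showed no break at the 50 kb limit. The median distal region lay 114.4 kb from the nearest H3K4me3 region, with quartiles of 72.8 and 221.9 kb and a largest distance of 2494 kb. Of the 8064, 3509 (43.5%) lay between 50 and 100 kb, 2292 between 100 and 200 kb, 1639 between 200 and 500 kb, 479 between 500 and 1000 kb, and 145 (1.80%) farther than 1000 kb. The regions nearest to the limit on its far side were at chr10:133948760-133949399 (50.042 kb), chr20:5032693-5033026 (50.078 kb) and chr21:45988044-45989416 (50.084 kb). On the near side, those at chr1:164580459-164580804, chr9:119500151-119500474 and chr19:42312816-42313763 each lay 49.994 kb away.

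**Figure D1:**
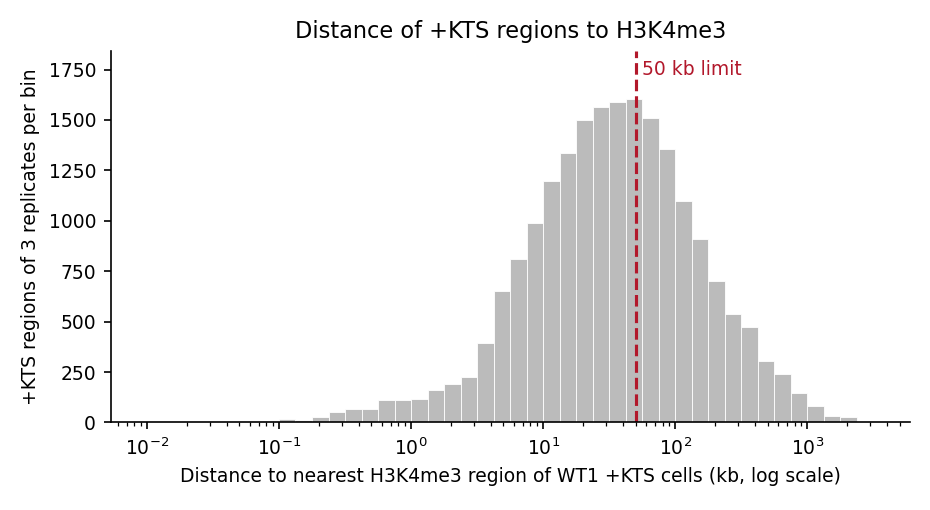
Number of +KTS regions called in 3 libraries (y axis) by distance to the nearest H3K4me3 region of +KTS cells (x axis, kb, log scale); the 777 regions at the mark are not drawn. The 8064 distal regions lie right of the dashed 50 kb line, which falls near the top of a single broad hump.

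Few regions were lost to the untagged and −KTS filters, which could remove few. The untagged lists held 101 to 743 peaks, and the −KTS filter required a call in replicate 2, whose list held 3245. Among regions with a peak in all 3 +KTS lists, 8113 lay beyond 50 kb, of which 35 met an untagged peak and 14 others met a region called in both −KTS lists. Peaks beyond 50 kb made up 39.1%, 35.1% and 42.6% of the lists of +KTS replicates 1, 2 and 3. Distal regions held 8190 peaks of replicate 3, which is 23.1% of that list, against 1.52% of the list of replicate 1 and 2.39% of that of replicate 2. In 7875 regions (97.7%) at least 1 base was common to a peak of all 3 lists, with a median common stretch of 195 bp. In the other 189 the peaks only formed a chain.

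In WT1 −KTS cells too, fewer distal regions had H3K4me3 within 50 kb. The choice of members did not use these lists, but it split the regions by the same mark in the same cell line. A difference of this sign was therefore largely built in, and the test below adds no independent support. In −KTS replicates 1, 2 and 3 of the mark, 8.21%, 26.6% and 15.6% of distal regions had an H3K4me3 peak within 50 kb, where all 20996 regions gave 51.8%, 69.1% and 64.4%. Regions within 50 kb of the mark in +KTS cells gave 80.2%, 95.9% and 95.3%. The mean over libraries was 16.8% ± 9.27 (SD, n = 3) for distal regions and 90.5% ± 8.87 (SD, n = 3) for regions within 50 kb. The difference of −73.7 percentage points ± 5.44 (SD, n = 3) had the same sign in all 3 libraries (two-sided exact sign-flip permutation p = 0.25, the smallest that 3 libraries allow).

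A small number of distal regions nonetheless carried the mark in −KTS cells. An H3K4me3 peak of −KTS replicates 1, 2 and 3 overlapped 6, 164 and 211 of the 8064 (0.0744%, 2.03% and 2.62%), where all 20996 regions gave 0.757%, 3.53% and 3.96%. Regions within 50 kb had 0.0823%, 0.798% and 0.971%, so the distal share was higher in replicates 2 and 3 and not in replicate 1 (exact sign-flip permutation p = 0.5 over 3 libraries, 0.25 being the smallest possible). Of the distal regions, 97 had a peak of 1 of these lists, 136 of 2 and 4 of all 3. Most of them also held an H3K4me3 peak of a single +KTS list, which the choice of members allowed. They are thus mostly not regions marked in −KTS cells alone.

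**Figure D2:**
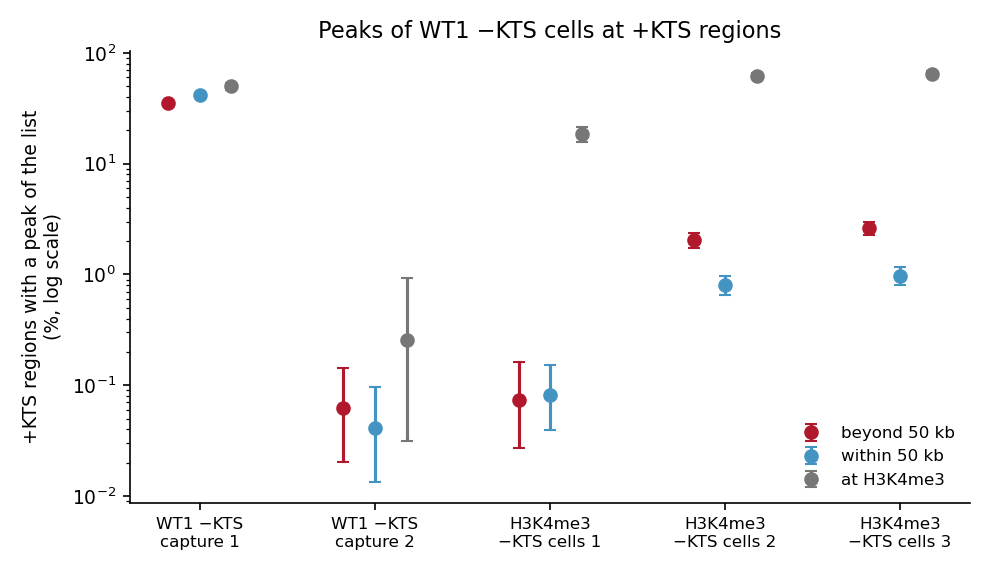
Share of +KTS regions with a peak of each list of −KTS cells (y axis, %, log scale), with exact 95% binomial intervals that cover counting error only; red, beyond 50 kb; blue, within 50 kb; grey, at H3K4me3. Distal regions lie above those within 50 kb in H3K4me3 replicates 2 and 3 and below them in WT1 −KTS capture replicate 1.

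Single libraries of +KTS cells often called H3K4me3 where the other did not. A peak of H3K4me3 +KTS replicate 2 overlapped 1371 distal regions (17.0%, exact interval 16.2% to 17.8%), against 17.5% of all 20996 regions, and replicate 1 overlapped 163 (2.02%, against 5.12%). The choice of members used these lists, so the shares are descriptions. The replicate 2 peaks at distal regions were weak and narrow for their list, with a median score of 60 against 100 and a median width of 286 bp against 370 bp. Within 50 kb there was a peak of replicate 1 at 12.9% and of replicate 2 at 67.2% of distal regions, against 66.5% and 87.4% of all. No H3K4me3 peak of any of the 5 lists overlapped 6487 distal regions (80.4%), a count not made over all regions. Lack of the mark at the region itself was not particular to the distal set. Peaks of +KTS replicates 1 and 2 overlapped 1.30% and 12.5% of regions within 50 kb. No H3K4me3 peak of −KTS cells overlapped 98.7% of those, against 97.1% of distal regions. Codes in the list names are shared by H3K4me3 +KTS replicate 2 and WT1 +KTS replicate 3, and what the codes stand for is not given in the sources used here.

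The number of distal regions depended on single libraries, and most on +KTS capture replicate 3 and H3K4me3 +KTS replicate 1, the shorter lists of their kind. Without +KTS capture replicate 3 the same rule gave 99324 regions, without +KTS capture replicate 2 12294, and without −KTS capture replicate 2, when every call of −KTS replicate 1 removes a region, 5221. Without H3K4me3 +KTS replicate 1, so that a call in replicate 2 alone counts as H3K4me3, 2651 distal regions were left, and 2364 were left when a call in either +KTS list counted.

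Median scores of distal regions were above the middle of the lists of +KTS replicates 1 and 2 and near it in replicate 3. In all 3 lists they were lower than nearer to the mark. Scores, which the authors gave to each peak, are used only to rank peaks within a list. In +KTS replicate 1 the best peak per distal region had a median score of 79 (quartiles 55 and 110), against a median of 58 over the list. In replicate 2 it was 67 (44 and 98) against 60, and in replicate 3 it was 67 (49 and 92) against 68. These medians stood at percentiles 73.6, 58.9 and 49.4 of the lists. Regions within 50 kb stood at 78.3, 64.5 and 52.2 and those at H3K4me3 at 83.0, 84.2 and 56.7, so all 3 lists gave the same order. The difference between distal regions and those within 50 kb averaged −4.38 percentile points ± 1.40 (SD, n = 3), and −1.60 when +KTS replicate 3 was left out.

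**Figure D3:**
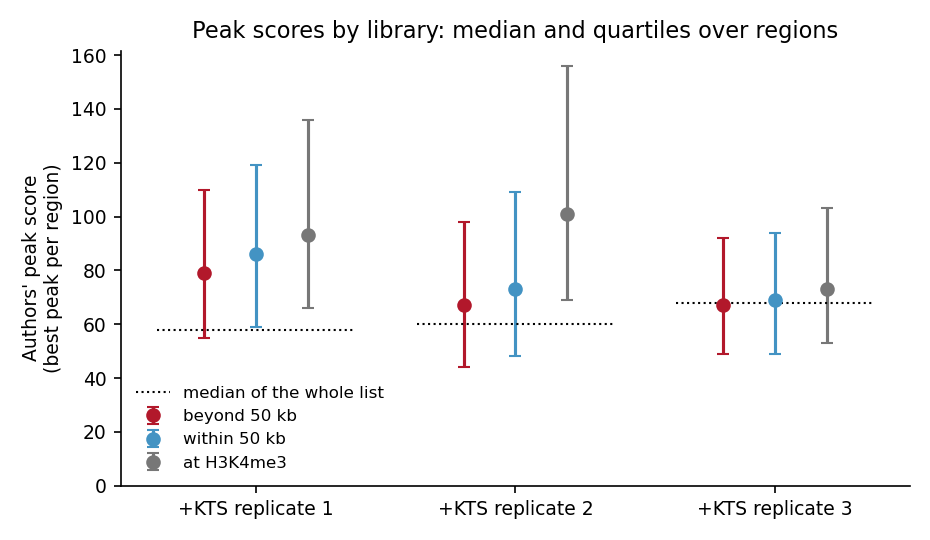
Median score of the best peak per region (points) with quartiles over regions (bars) in each +KTS capture library; the y axis is the authors' score, and the dotted line is the median of the whole list. Distal regions (red) have medians of 79, 67 and 67, at or below the other sets in each library.

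The libraries ranked the distal regions differently. The choice of members required peaks that overlap or chain together, which limits how far apart they can lie. Centres of the best peaks in replicates 1 and 2 lay a median of 37 bp apart, in replicates 1 and 3 58.5 bp, and in replicates 2 and 3 49.5 bp. Spearman's rho of the scores over the 8064 distal regions was 0.38 between replicates 1 and 2, 0.13 between 1 and 3 and 0.04 between 2 and 3. Regions at H3K4me3 gave 0.51, 0.31 and 0.20. These are descriptions over regions, which share libraries and are not replicates. Scores were lower at greater distance in replicates 1 and 2, where the median percentile was 76.0 and 62.7 at 50 to 100 kb and 59.4 and 32.7 beyond 1000 kb. In replicate 3 it was 49.4 and 43.7.

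A WT1 −KTS peak was called at many distal regions in 1 of the 2 −KTS libraries. A peak of −KTS replicate 1 overlapped 2843 of the 8064 (35.3%, exact interval 34.2% to 36.3%), against 39.4% of all 20996 regions. Regions within 50 kb had 41.4% and those at the mark 49.8%. The distal share was 13.2% when the regions were built without +KTS replicate 3. Only 5 distal regions (0.0620%, against 0.0572% of all) met a peak of −KTS replicate 2, whose list holds 3245 peaks. Because regions called in both −KTS lists were removed, each share is bounded by the choice of members. Over the 2 libraries the distal share minus that within 50 kb was −3.08 percentage points ± 4.38 (SD, n = 2), lower in 1 of 2 libraries. This is a description, since the choice of members used both lists and 2 libraries cannot give a p below 0.5 in an exact sign-flip permutation test. Within 50 kb of 94.4% and 6.15% of distal regions lay a peak of −KTS replicates 1 and 2, against 97.1% and 19.2% of all regions. In untagged cells, the background of the capture, no distal region held a peak by the choice of members. A peak of untagged replicates 1, 2 and 3 lay within 50 kb of 3.87%, 0.521% and 1.57% of them, against 4.07%, 0.733% and 3.31% of all regions.

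Regions called in all 3 +KTS libraries more often held a −KTS replicate 1 peak than those called in 1 or 2. Beyond 50 kb, before the other filters, 12.9% of the 131465 regions called in 1 +KTS list held a peak of −KTS replicate 1, 13.4% of the 96424 called in 2 lists and 35.5% of the 8113 called in all 3. Regions within 50 kb of the mark or at it gave 16.3%, 19.9% and 42.3%. Distal regions built without +KTS replicate 1 had a share of 34.6% and those built without replicate 2 41.3%. Without replicate 3 it was 13.2%. Regions called in 2 lists were not split by library. Whether the higher share went with calls in replicate 3 or with the number of lists was therefore not tested. The median width of the regions beyond 50 kb in 1, 2 and 3 lists was 241, 368 and 415 bp, and the part of width in the shares was not tested. Peaks of −KTS replicate 1 in distal regions had a median score of 109, against 101 over that list, and a median centre 58 bp from that of +KTS replicate 3.

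The share of distal regions with a −KTS call differed between classes of width. A peak of −KTS replicate 1 was found in 28.6% of the 882 regions under 300 bp, 47.8% of the 2349 from 320 to under 400 bp and 51.4% of the 992 from 400 to under 440 bp. In wider regions the share was 36.3% from 440 to under 500 bp, 20.2% from 500 to under 700 bp, 17.9% from 700 to under 1000 bp and 24.1% above that. Regions within 50 kb of the mark also had their highest share, 51.3%, from 400 to under 440 bp, with 33.0% and 33.5% in the 2 classes from 500 to under 1000 bp and 42.6% from 1000 bp upwards. The classes were chosen after the data were seen, and no test was made. Distal regions from 320 to under 440 bp had 48.9% and those from 500 to under 1000 bp 19.2%. With +KTS lists cut to equal length, which left 554 distal regions, the order turned to 17.8% and 23.2%. Without +KTS replicate 3 the shares were 20.5% and 8.97%.

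Score and −KTS calls were related in opposite ways in different +KTS libraries. Distal regions were split by score into 4 groups of 2016. From the lowest to the highest group, the share with a −KTS replicate 1 peak was 43.7%, 38.7%, 30.4% and 28.3% in +KTS replicate 1. In replicate 2 it was 51.9%, 41.6%, 27.8% and 19.7%. In replicate 3 it was 30.4%, 30.3%, 34.6% and 45.7%, highest in the top group. Distal regions with a −KTS replicate 1 peak had median scores of 70, 52 and 73 in +KTS replicates 1, 2 and 3, and those without it 81, 74 and 64. They were also narrower, at 394 against 442 bp. A peak of H3K4me3 +KTS replicate 2 overlapped 25.1% of those with a −KTS peak (exact interval 23.5% to 26.7%) and 12.6% of those without it (11.7% to 13.5%).

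**Figure D4:**
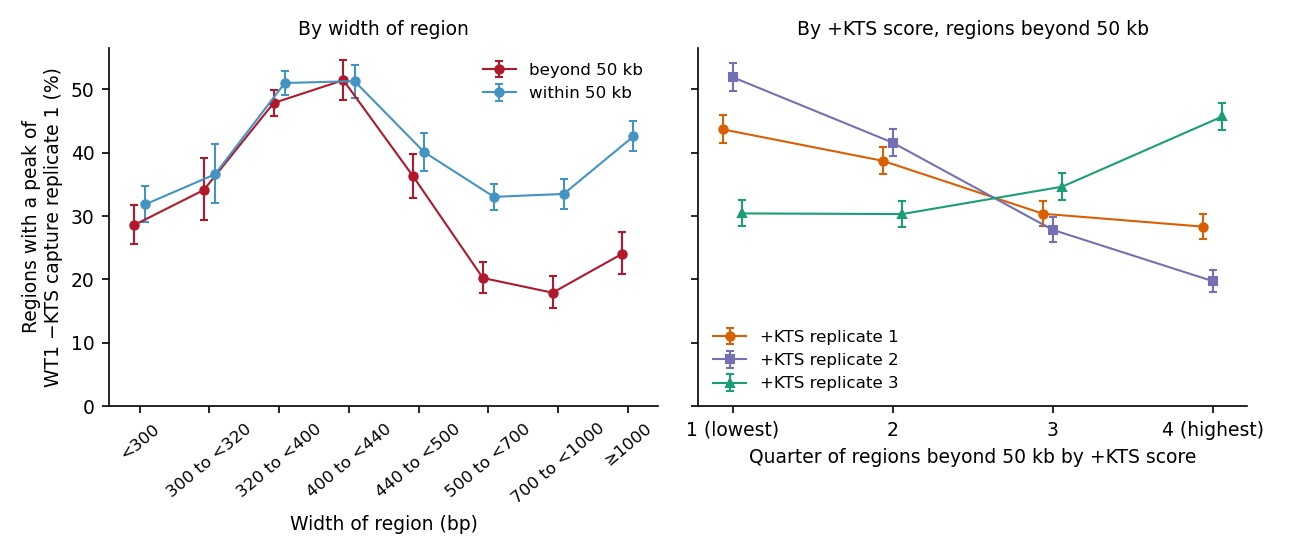
Share of regions with a peak of WT1 −KTS capture replicate 1 (y axis, %) by region width (left; red beyond 50 kb, blue within 50 kb) and by 4 equal groups of the +KTS score in each library (right; distal regions only), with exact 95% binomial intervals. The share of distal regions is 51.4% from 400 to under 440 bp, and the groups of replicate 3 run opposite to those of replicates 1 and 2.

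The strongest distal regions were gathered in a few stretches of the genome. Regions were ranked by their worst rank over the 3 +KTS lists. No region of chromosome 8 is named. Among the 10 best-ranked regions of the other chromosomes, 8 lay on chromosome 22 between 19 and 23 Mb, 1 on chromosome 9 and 1 on chromosome 13. K562 is known for an amplified fusion of BCR on chromosome 22 with ABL1 on chromosome 9. Copy number was not measured here, and its part in these scores was not tested. On chromosome 22 from 17 to 24 Mb, 74 of 621 +KTS regions were distal, with median scores of 240.5, 214.5 and 99 in replicates 1, 2 and 3. On chromosome 13 from 90 to 94 Mb, 16 of 43 were distal, with 264, 141.5 and 125. In a stretch of 2 Mb of chromosome 9 around the region named there, 18 of 111 were distal, with 83, 117.5 and 77. Distal regions elsewhere had 78.5, 65 and 67. A −KTS replicate 1 peak was found in 72 of the 108 regions in the 3 stretches (66.7%) and in 34.8% of the 7956 elsewhere. The stretches were chosen after the values were seen. When chromosome 8 was ranked too, the stretches held 9 of the 10, 30 of the 50, 37 of the 100 and 59 of the 500 best-ranked distal regions.

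The leading distal region lay at chr22:21122812-21123246, 435 bp wide and 63.9 kb from H3K4me3. It scored 606, 713 and 282 in +KTS replicates 1, 2 and 3, ranks 142, 58 and 70 of those lists, and held a −KTS replicate 1 peak of score 95. A second on the same chromosome at 21126385 to 21126806 scored 682, 465 and 184, and another at 21140337 to 21141449 scored 530, 516 and 174. These 3 lie within 20 kb of each other, and only the first 2 held a −KTS replicate 1 peak.

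The other 5 named regions of chromosome 22 were more mixed in the lists they shared. That at 22554777 to 22556469 was 1693 bp wide, scored 588, 588 and 246, and held peaks of −KTS replicate 1 and of H3K4me3 +KTS replicate 2. That at 19051404 to 19052621 scored 443, 441 and 200, and its neighbour at 19055313 to 19056948 scored 473, 339 and 274. Both held a −KTS replicate 1 peak. The regions at 19034080 to 19034466 (469, 419 and 188) and 19627063 to 19627627 (399, 347 and 189) held no peak of any −KTS or H3K4me3 list.

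Outside chromosome 22, the region at chr13:91216324-91216778 scored 465, 396 and 220 and held a peak of H3K4me3 +KTS replicate 1 only. That at chr9:133641354-133641858 scored 414, 345 and 291 and held no peak of any −KTS or H3K4me3 list. In replicate 3 it ranked 56, ahead of every other named region.

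The widest distal regions were 5719 bp at chr22:20935098-20940816, and 5305 and 5285 bp at chr5:69802987-69808291 and 68926912 to 68932196. All 3 held a −KTS replicate 1 peak, with scores of 174, 201 and 190. The widest scored 360, 328 and 114 in +KTS replicates 1, 2 and 3. Those on chromosome 5 scored 384, 275 and 92, and 524, 297 and 195, and both held a peak of H3K4me3 +KTS replicate 2.

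The most remote distal regions were on the sex chromosomes. That at chrX:89570770-89571157 lay 2494 kb from H3K4me3 and scored 78, 121 and 74. That at chrY:18746995-18747278 lay 2407 kb away and scored 80, 67 and 172. K562 is known to lack a Y chromosome, yet 12 distal regions were assigned to it. A further one at chrX:144371341-144371748, 2364 kb away, scored 127, 131 and 54. The first 2 held a −KTS replicate 1 peak and the last did not, and that on chromosome Y also held a peak of H3K4me3 +KTS replicate 2.

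The 5 distal regions with a peak of −KTS replicate 2 shared no single +KTS profile. That at chr7:2755971-2757219 held separate peaks of both −KTS lists, with scores of 103 and 148 in −KTS replicates 1 and 2, and scored 71, 146 and 75 in the +KTS lists. That at chr7:137249517-137249772 scored 85, 116 and 229, and that at chr12:25956054-25956403 scored 245, 124 and 147 and held an H3K4me3 peak of −KTS replicate 3. That at chr5:2668162-2669120 scored 94, 78 and 70 and had no base common to the 3 +KTS lists. The last, at chr7:144185506-144186065, ranked 493 and 1260 in +KTS replicates 1 and 2 but 35221 of 35455 in replicate 3, with scores of 437, 291 and 15.

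Distal regions often had distal neighbours. Joining regions up to 100 kb apart left 2942 alone and put 5122 (63.5%) into 1655 groups, of which 33 held 10 or more. Among regions within 50 kb of the mark, 84.9% had another of their kind as near. Without +KTS replicate 3 the share of distal regions in groups was 98.4%, among 99324 regions. The largest group lay at chr5:1934943-2888423 and held 39 distal regions over 953 kb, of which 2 had a −KTS replicate 1 peak. The next lay at chr7:3681269-4581102 with 21 regions, and at chr6:168491815-169184926 with 20, of which 3 and 4 had a −KTS replicate 1 peak. Their median widths were 582, 531 and 531.5 bp.

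The 3 densest bins of 1 Mb were of different kinds. Between 2 and 3 Mb of chromosome 5 all 37 +KTS regions were distal, no H3K4me3 region lay in the bin, and median scores were 94, 86 and 65 in replicates 1, 2 and 3. Between 157 and 158 Mb of chromosome 7, 29 of 48 +KTS regions were distal, with 94, 92 and 61. In these bins 2 and 1 regions held a −KTS replicate 1 peak (5.41% and 3.45%). Between 69 and 70 Mb of chromosome 5, 25 of 37 +KTS regions were distal, with higher median scores of 234, 117 and 141. There 24 of 25 (96.0%) held a −KTS replicate 1 peak and 10 a peak of H3K4me3 +KTS replicate 2, against 1 and 0 in the other bins. For scale, 2342 bins held a distal region, with a median of 3. The most in any bin was 18 without H3K4me3 +KTS replicate 1, 24 without H3K4me3 +KTS replicate 2 and 441 without +KTS capture replicate 3.

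By chromosome, the distal share was lower where H3K4me3 regions were dense. It was highest on chromosome 18 (320 of 606, 52.8%) among chromosomes other than Y, and near it on chromosomes 8 (51.6%), 4 (51.6%), X (49.2%) and 2 (49.0%), whose exact 95% intervals overlap that of chromosome 18. It was lowest on chromosomes 19 (97 of 832, 11.7%) and 22 (125 of 836, 15.0%). Of the 836 regions of chromosome 22, 621 lay between 17 and 24 Mb, and 74 of these were distal. H3K4me3 regions numbered 4.40 per Mb on chromosome 18, 28.7 on chromosome 19 and 11.1 on chromosome 22. Chromosome 17 had more than chromosome 22, 15.7 per Mb, and yet a higher distal share, 26.2%. Spearman's rho between share and density was −0.83 over 23 chromosomes, a description, since the density enters the choice of members. The number of distal regions per Mb against the same density gave 0.28. Per Mb, distal regions were most numerous on chromosome 7 (4.85), chromosome 18 (4.10) and chromosome 5 (3.53), and, apart from chromosome Y, least numerous on chromosomes X (1.04), 14 (1.10) and 13 (1.22). A −KTS replicate 1 peak was found in 50.7% of the distal regions of chromosome 13, 48.0% of those of chromosomes 3 and 22, and 24.7% of those of chromosome 19. The value of chromosome 22 came mostly from 1 stretch. Of its 60 distal regions with such a peak, 53 lay between 17 and 24 Mb, where the share was 71.6% of 74.

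**Figure D5:**
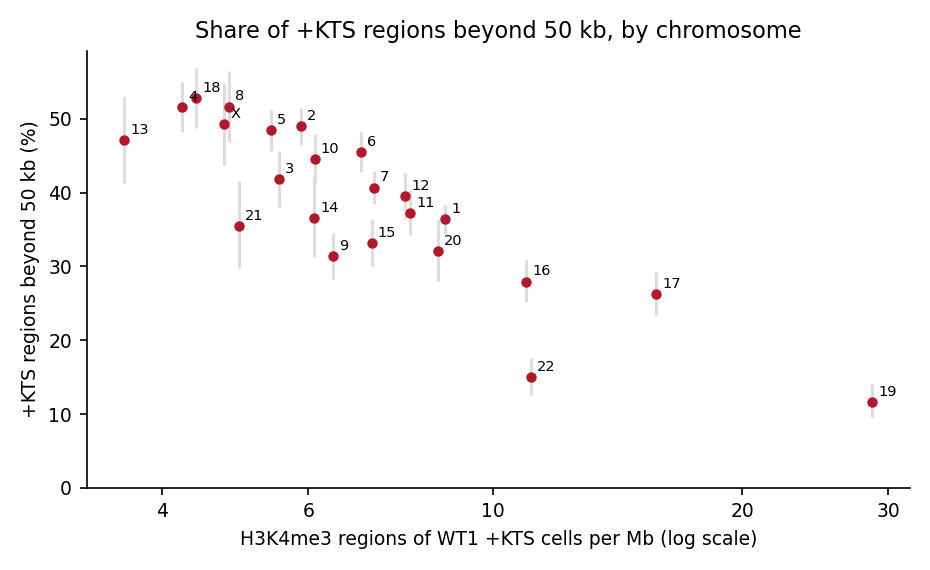
Share of +KTS regions beyond 50 kb from H3K4me3 (y axis, %, with exact 95% binomial intervals) against H3K4me3 regions of +KTS cells per Mb (x axis, log scale) for 23 chromosomes, without Y. The share is 52.8% on chromosome 18 and 11.7% on chromosome 19, which has the densest H3K4me3. Length is the largest peak end on the chromosome, including stretches without peaks.

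Few distal regions lay beside long stretches without peaks. Stretches of at least 1 Mb without a peak in any list numbered 22, on 20 chromosomes, and 92 distal regions (1.14%) lay within 1 Mb of one, against 1.07% of regions within 50 kb of the mark. Among these 92, 33.7% held a −KTS replicate 1 peak, and elsewhere 35.3%. No list of unreliable regions was used, so repeats away from such stretches were not screened.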

How the data were processed

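Per the labels, chromatin was crosslinked, sheared and captured on streptavidin beads or immunoprecipitated for H3K4me3. Per the submitters' processing notes, the tools include MACS2 2.1.1.20160226 for peaks and Bowtie2 2.2.7, on build hg19. The control, any filter and the calling threshold were not given in the sources used here. For 13 of 22 samples a list of peaks was deposited, in which the authors gave each peak a whole-number score. "Pooled" appears in the names of −KTS lists without further detail. The 9 input libraries were not analysed here. Only chromosomes 1 to 22, X and Y were used, and peaks were merged where they shared at least 1 bp, and distances are between edges. A region's score in a list is that of its best peak. Shares were compared over libraries with exact sign-flip permutation tests. Intervals are exact Clopper-Pearson 95%, cover counting error only, and treat regions as independent, which they are not. Named regions, none on chromosome 8, are the 10 with the best worst rank, the 3 widest, the 3 farthest, 3 on each side of the limit, those with a −KTS replicate 2 peak and the 3 densest 1 Mb bins. Members, lists and tests were chosen with earlier results of these data known. Planned gene, motif and marker counts were not run without an hg19 genome. Python 3.11.15, numpy 2.4.6, scipy 1.17.1 and pandas 2.3.3 were used. On simulated lists, planted regions were recovered, and counts equalled those of bedtools 2.31.1.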

Additional observations from a re-analysis of the deposited data

How the results depend on the processing

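The number of distal regions (8064) depended on the lists. It was 3781 with a score of at least 50, 13067 with a limit of 20 kb, 4555 with 100 kb, 2364 with H3K4me3 called in either +KTS library, 1962 with any of the 5 libraries and 554 with equal +KTS lists. Leaving out 1 library gave 2651 (H3K4me3 +KTS replicate 1) to 99324 (+KTS capture replicate 3), and also 12294 (+KTS capture replicate 2) and 5221 (−KTS capture replicate 2). The median distance (114.4 kb) was 110.7 kb with a score of at least 50 and 86.4 kb with equal lists, and 110.3 to 123.7 kb without 1 +KTS library. The median peak width, members minus regions within 50 kb, averaged −18.3 bp ± 18.6 (SD, n = 3) and was −80.5 bp with equal lists. The score percentile difference averaged −4.38 ± 1.40 (SD, n = 3), −11.5 with equal lists and −4.38 to −1.60 without 1 +KTS library. The share with another distal region within 100 kb (63.5%) was 50.6% with a score of at least 50, 71.9% and 58.3% with limits of 20 and 100 kb, 40.3% and 39.7% with H3K4me3 of either +KTS or any library, 42.8% with equal lists, and 33.4% and 92.0% when joined up to 20 and 500 kb. Without 1 library it was 42.6% to 98.4%. The difference in −KTS capture share of −3.08 points turned to 0.0209 in −KTS replicate 2 alone and was −6.18 in replicate 1 alone. It kept its sign under the other alternatives run, between −11.3 and −0.995. That in H3K4me3 of −KTS cells lay between −77.8 and −62.9 points under 22 alternatives. When a −KTS capture list is left out of the choice of members, the other removes every region it calls, so that share is 0 by construction. The planned window for sequence was not run. No paired analysis was possible because no test compares groups of libraries that share replicate numbers, and the sign-flip tests already take both sets of regions from the same library.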
